A study of Rattus norvegicus with 8 samples.

Results

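The transcriptome of the rat hippocampus was described from 4 RNA sequencing libraries, which are all the hippocampus libraries among the 8 libraries of the series. The tissue came from male rats of the outbred Sprague Dawley strain that were 2 months old at the start and then took 15% fructose in their drinking water and an omega-3 fatty acid diet for 6 weeks. Docosahexaenoic acid (DHA) is the omega-3 fatty acid named on these libraries. All 4 libraries share both the fructose and the omega-3 diet, so the effect of neither is measured, and values are set against no other group. Whether 1 animal stands behind each library is not stated in the labels, and the spread below is that between libraries and may be technical. Levels are FPKM (fragments relative to transcript length and sequencing depth), summed over the loci of a gene symbol and scaled between the 4 libraries. Of 16167 symbols, 10353 reached a mean of at least 1 FPKM and were ranked, and the other 5814 stayed under that minimum.

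The hippocampus is a fold of cortex that forms memories of places and events. Its pyramidal neurons in the CA fields and its granule neurons in the dentate gyrus release glutamate, local interneurons release GABA, and synapses on dendritic spines change in strength with use. Astrocytes clear glutamate, oligodendrocytes make myelin, and the choroid plexus, an epithelium in the ventricles that makes cerebrospinal fluid, lies against the hippocampal surface.

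Read totals are unknown, and the libraries differed in ways that touch the results. Low values fell on steps of a single fragment in replicates 2, 3 and 4. They placed a fragment in replicate 2 at 1.36 times its value in replicate 3 and 1.44 times that in replicate 4, so replicate 2 was the shallowest of these. Replicate 1 did not share the steps. Correlation between libraries, across genes on the log2 scale, ranged from 0.888 for replicates 2 and 4 to 0.967 for replicates 3 and 4; genes are not independent replicates. The main axis of difference held 57.0% of the variance and set replicate 2 (0.82) against replicate 4 (-0.53). Genes of short genomic span were low in replicate 2, choroid plexus genes were high in replicates 3 and 4, and pineal and photoreceptor genes were high in replicate 4. Main counts of variable genes are given with and without replicate 2, and some without replicate 4 or without replicates 3 and 4.

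The tissue label was checked against marker genes. All 24 listed genes of glutamatergic neurons were ranked, led by Chn1, a Rac-regulating protein of dendrites, at 1694 ± 350.4 FPKM (SD, n = 4) and Camk2a, the kinase of excitatory synapses, at 1584 ± 353. Slc17a7, the vesicular glutamate transporter of these neurons, was deposited with a status other than OK and was left out, and its deposited mean was 708 FPKM. Of 22 listed genes of hippocampal subfields, 20 were ranked. The dentate granule cell markers Prox1 and C1ql2 had means of 13.3 and 29.9 FPKM. The CA1 marker Wfs1 stood at 135 FPKM, and the CA2 markers Rgs14 and Necab2 at 34.1 and 99.7 FPKM. Fibcd1, a CA1 marker, was listed at 0 in every library. Such a 0 may be a failed estimate: Npy, a peptide of hippocampal interneurons, and Col1a2, a collagen of meninges and vessels, were also listed at 0, and 2801 symbols were at 0 throughout.

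Expression was concentrated in few genes. The 100 highest genes held 24.3 ± 1.71% of the summed FPKM (SD, n = 4; 23.3, 22.5, 25.4 and 26.1% in replicates 1 to 4), and the 10 highest held 5.88 ± 1.56%. The share of the top 100 was lowest in replicate 2. Ranked by mean, 106 genes made up 25% of the sum, 594 genes 50% and 4529 genes 90%. Only 33 genes reached 1000 FPKM and together held 13.9% of the sum, whereas the 2604 genes between 1 and 5 FPKM held 1.92%. The mean was 1594 FPKM at rank 10, 407 at rank 100 and 72.6 at rank 1000.

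**Figure D1:**
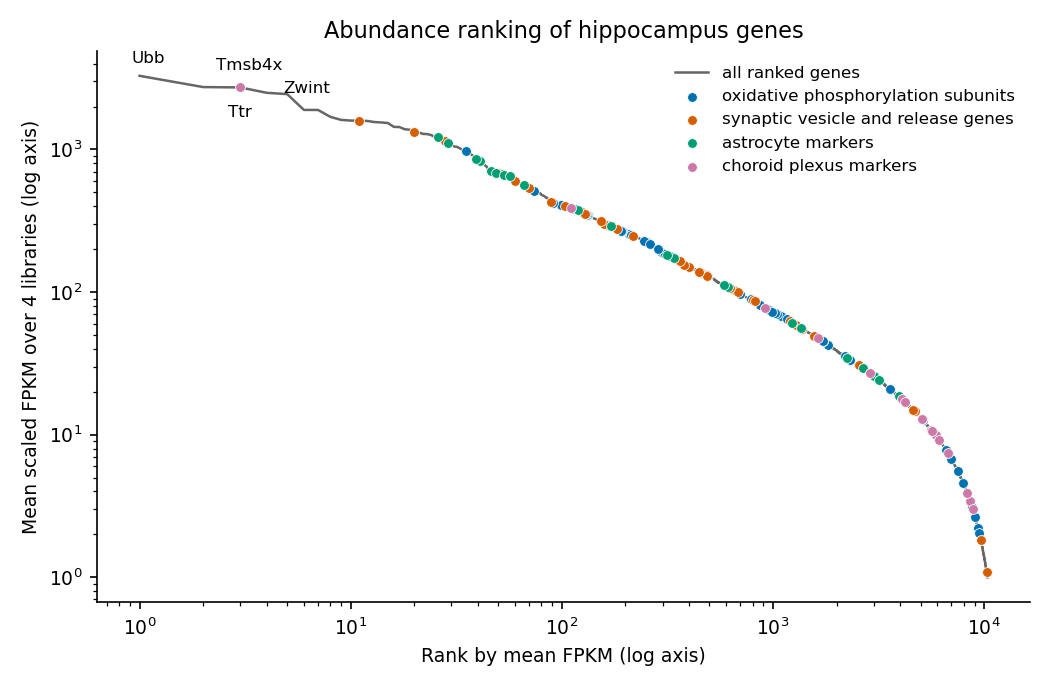
Mean scaled FPKM of 10353 ranked hippocampus genes against rank, both on log axes; the line is all ranked genes and points are members of 4 gene lists. Synaptic vesicle and astrocyte genes reach the first 100 ranks, and the choroid plexus gene Ttr holds rank 3.

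The first ranks mixed protein turnover, cytoskeleton, energy metabolism and ion transport. Ubb, a ubiquitin precursor, ranked first at 3814, 1788, 3259 and 4269.7 FPKM in replicates 1 to 4, with the lowest value in replicate 2. Tmsb4x, the actin-binding thymosin, followed at 2738 ± 564 FPKM. Ttr, the thyroid hormone carrier made by choroid plexus, held rank 3 on 2 libraries only. It was at 35.6 and 34.6 FPKM in replicates 1 and 2 and at 6201 and 4616 FPKM in replicates 3 and 4, so its mean describes no library. Zwint, a protein first known from kinetochores, stood at 2496 ± 384 FPKM, and Mdh1, the cytosolic malate dehydrogenase, at 2444 ± 761. The sodium pump subunit Atp1b1 ranked 18, at 1386 ± 67.8 FPKM. Mbp, a main protein of myelin, ranked 7, and Mt3, the brain metallothionein, ranked 9. Ugt2b1, a glucuronosyltransferase, ranked 10 with 982, 769.8, 1733 and 2892 FPKM, a symbol whose family holds near-identical copies, so its level is uncertain. Scd, a desaturase that makes monounsaturated fatty acids, ranked 19 at 1376 ± 369 FPKM.

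Genes of synaptic release, oxidative phosphorylation and the cytoskeleton held the largest shares of expression among the lists, which differ in size. Of all ranked genes, 4.83% lie in the top 500 ranks and 0.966% in the top 100 by construction. Of 42 ranked genes of the synaptic vesicle and release list, 25 were in the top 500 and 9 in the top 100, and the list held 3.31% of the summed FPKM (3.01, 3.47, 3.27 and 3.51% in replicates 1 to 4). Atp6v0c, a subunit of the proton pump that fills vesicles, stood at 1591 ± 358 FPKM. The list also counts the pump subunits Atp6v1b2, Atp6v0d1 and Atp6v1g2, at 669, 604 and 354 FPKM. Its share depends in part on these subunits and was not computed without them. Snap25, a SNARE protein of the presynaptic membrane, was at 636, 721, 615 and 746 FPKM and was among the steady genes. Its partner Vamp2 was at 607 FPKM in replicate 1 and at 1557, 1682 and 1484 FPKM in the others. Cplx1, the complexin that clamps SNARE complexes, was lower still in replicate 1, at 261 FPKM against 1480.5, 1442 and 1385 FPKM. Both genes were thus low in replicate 1 alone. Syp, synaptophysin, was left out for its status, with a deposited mean of 623 FPKM. The chaperone Hsp90ab1 (597 FPKM), the 14-3-3 adaptor Ywhag (594 FPKM), Nell2 (585 FPKM) and Nsmf (507 FPKM) were left out for the same reason and would otherwise lie in the top 100.

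Energy metabolism, the cytoskeleton and calcium signalling followed. Of 72 ranked subunits of oxidative phosphorylation, 36 were in the top 500 and 6 in the top 100, with 3.21% of the summed FPKM (3.49, 2.57, 3.01 and 3.75%). The order of these lists turned on replicate 2: without it oxidative phosphorylation held 3.42%, the cytoskeleton 3.28% and synaptic release 3.26%. Cox4i1, a subunit of cytochrome c oxidase, led them at 1178, 534, 781 and 1423 FPKM. Glycolysis genes had 9 of 16 in the top 500. Aldoa, the general aldolase, was at 1222 ± 363 FPKM and Aldoc, its astrocyte-enriched relative, at 663 ± 172. Cytoskeleton genes had 23 of 44 in the top 500 and the same share of 3.21%, led by Tmsb4x and by Actb at 1532 ± 125 FPKM. Calcium and calmodulin genes had 17 of 32 there, with Calm3 at 1263 ± 432 FPKM.

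Postsynaptic genes had 13 of 36 ranked members in the top 500, and genes of glutamatergic neurons 11 of 24. Nrgn, a calmodulin-binding protein of spines, was at 759.9, 257, 393 and 566 FPKM. Receptor and channel genes were lower than these lists. Of 34 ranked glutamate and GABA receptor genes, 1 was in the top 500 (2.94%), Gabbr1 at 387 ± 31.6 FPKM. Potassium and sodium channel genes had 3 of 32 there (9.38%), against 4.83% of all ranked genes. The median of the ranked receptor genes was 20.2 FPKM, against 152 FPKM for synaptic vesicle genes and 12.5 FPKM for all ranked genes. Astrocyte markers had 13 of 22 in the top 500, 9 of them in the top 100, and a median of 236 FPKM. Among them were Sparcl1, a secreted synapse-organising protein, at 1219 ± 97.3 FPKM, and Slc1a2, the main glutamate transporter, at 588, 1042, 657 and 531 FPKM. Myelin genes had 8 of 22 in the top 500. Microglia markers had 1 of 19 there, the cathepsin Ctss at 156 ± 35.2 FPKM, and this 5.26% is near the 4.83% of all ranked genes. Immediate early genes had 0 of 29 in the top 500, as did 18 circadian clock genes and 13 oligodendrocyte precursor markers. In lists this small, 0 is little below the 4.83% of all ranked genes. In bulk tissue, fewer cells of a type and less RNA per cell cannot be told apart.

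Some genes that every cell uses were listed low. Gapdh, a glycolytic enzyme often used as a reference, had 5.61, 3.78, 7.61 and 5.91 FPKM, and Ppia, a cyclophilin, 6.41 ± 1.29 FPKM. Of 82 ribosomal protein symbols, 17 reached 100 FPKM, 32 lay between 10 and 100, 21 between 1 and 10 and 12 under 1, of which 4 were listed at 0. Rpl41 was at 1285 ± 661 FPKM and Rps18 at 1.70 ± 0.236. Ribosomal proteins and Gapdh have many near-identical pseudogene copies, and how reads shared between copies were assigned is not stated in the labels. Their levels are therefore uncertain, and their place in the ranking with them.

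Spread between libraries was measured as the SD of log2(FPKM + 1) for the 7749 genes whose mean reached 5 FPKM; this scale understates differences of low genes. The median SD was 0.259. Genes were called variable when the highest library was at least 2-fold above the lowest on the FPKM + 1 scale, and steady when it was less than 25% above. By these rules 1292 genes (16.7%) were variable and 1484 (19.2%) were steady. A gene that reaches 5 FPKM only through the libraries where it is high had to differ, so counts for lists of low genes are set partly by this minimum. Replicate 2 set much of this: without it the median SD was 0.164, with 351 variable genes (4.55%) and 3984 steady ones (51.6%), and 327 of the 351 were also variable with all 4 libraries, which is 25.3% of the 1292. Without replicate 4 there were 835 variable genes, and without replicate 1 there were 2364 steady genes. Between replicates 1 and 2 alone, 688 of 7683 genes (8.95%) were variable. Leaving out a library also removes a chance to differ, since the range is then taken over 3 values.

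**Figure D2:**
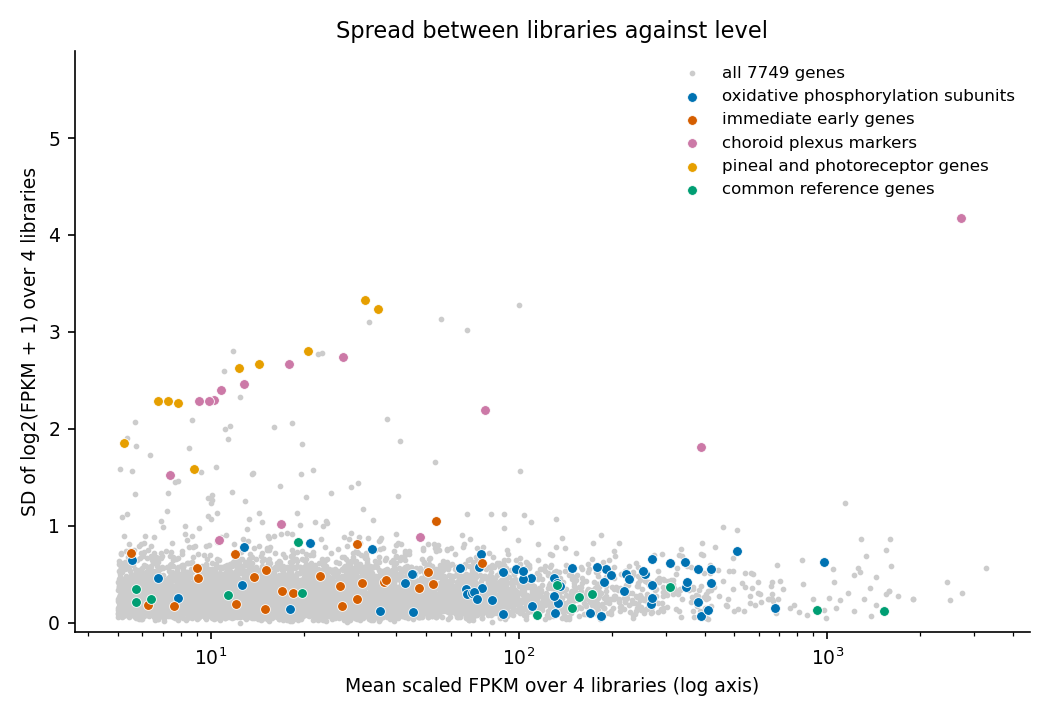
SD of log2(FPKM + 1) over 4 libraries against mean scaled FPKM on a log axis, for 7749 genes in grey and members of 5 lists in colour. Most of the choroid plexus and pineal genes drawn lie above the mass of genes, many of them reaching the minimum of 5 FPKM only through the libraries where they were high; the reference genes Actb, Ywhaz and Eef1a1 lie at SDs of 0.12, 0.13 and 0.08.

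Of the 1292 variable genes, 737 were lowest in replicate 2, which is 9.51% of the 7749 genes. Many genes that were not variable were also lowest there, and that share is given by gene span below. The commonest pattern, with 404 genes, was lowest in replicate 2 and highest in replicate 4. Variable genes made up a larger share of highly expressed genes: 39.4% of the 33 genes over 1000 FPKM and 21.9% of the 645 genes at 100 to 1000 FPKM, against 14.7% of the 4038 at 5 to 20 FPKM. In the top 100, 30 genes were variable, 25 of them lowest in replicate 2, and 18 were steady. Of all 100, variable or not, 54 were lowest in replicate 2.

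The deviation of replicate 2 followed gene span, the distance from the start to the end of a gene. Spans came from RefSeq (GRCr8) for 7636 of the genes (98.5%), divided by span into 5 groups of near-equal size. In the shortest group, with a median span of 4.61 kb, the median deviation of replicate 2 from the gene's mean was -0.32 on the log2 scale, and in the longest, with a median of 139 kb, it was 0.23. Of all genes, variable or not, 64.1% of the shortest group and 14.9% of the longest were lowest in replicate 2. Replicates 1 and 4 were at 0.15 in the shortest group. Variable genes made up 31.0% of the shortest group and 14.3% of the longest. Without replicate 2 these shares were 8.48 and 2.36%.

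**Figure D3:**
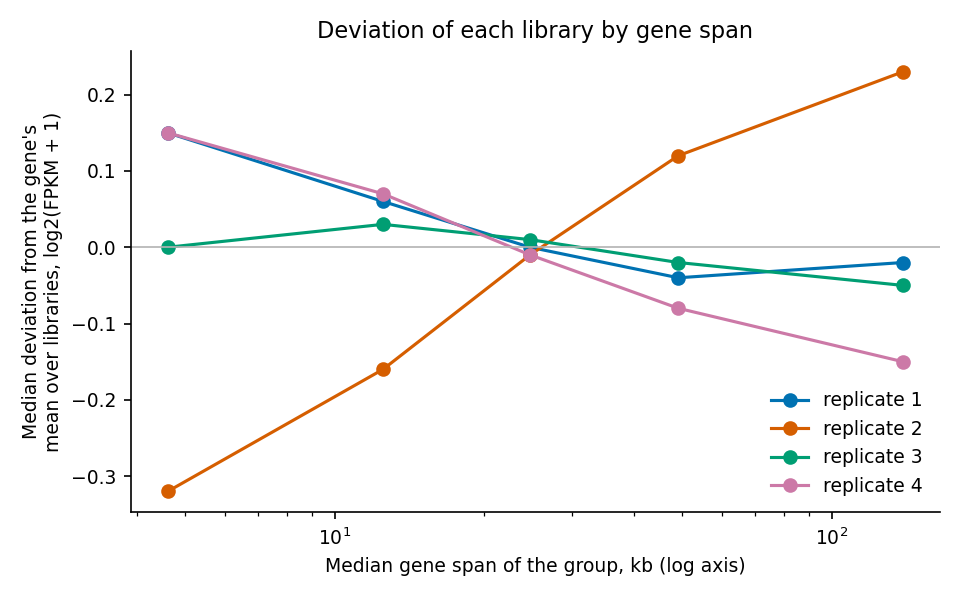
Median deviation of each library from the gene's mean, in log2(FPKM + 1), against the median span in kb (log axis) of 5 groups of genes; each line is a library. Replicate 2 runs from -0.32 at the shortest spans to 0.23 at the longest, and replicate 4 from 0.15 to -0.15.

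Functional lists deviated in replicate 2 in either direction, though not in strict order of span. Oxidative phosphorylation subunits, with a median span of 7.17 kb, had 29 of 66 variable members (43.9%, against 16.7% of all genes). The median deviation of this list was -0.52 in replicate 2. Cox6a1, a subunit of cytochrome c oxidase, was at 666, 243, 388 and 739 FPKM. Without replicate 2, 4.55% of all genes were variable. Of these 66 genes 1 was then variable, Cycs, the electron carrier cytochrome c, at 5.11, 15.3, 20.4 and 10.4 FPKM. Ribosomal proteins (median span 3.12 kb) had 18 of 58 variable (31.0%), or 6 without replicate 2, and a median deviation of -0.37 in that library. Lists of long-span genes went the other way. Potassium and sodium channels (95.9 kb) had a median deviation of 0.30 in replicate 2 and 9 of 31 variable members (29.0%), with 0 of 30 without it. Glutamate and GABA receptors (239 kb) were at 0.36 with 7 of 28 variable, and without replicate 2 the only variable one of 27 was Gria2. The channel and receptor counts without replicate 2 lie near the 4.55% of all genes. Grin2a, an NMDA receptor subunit, was highest in replicate 2, at 30.9, 59.5, 31.4 and 18.2 FPKM in replicates 1 to 4.

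**Figure D4:**
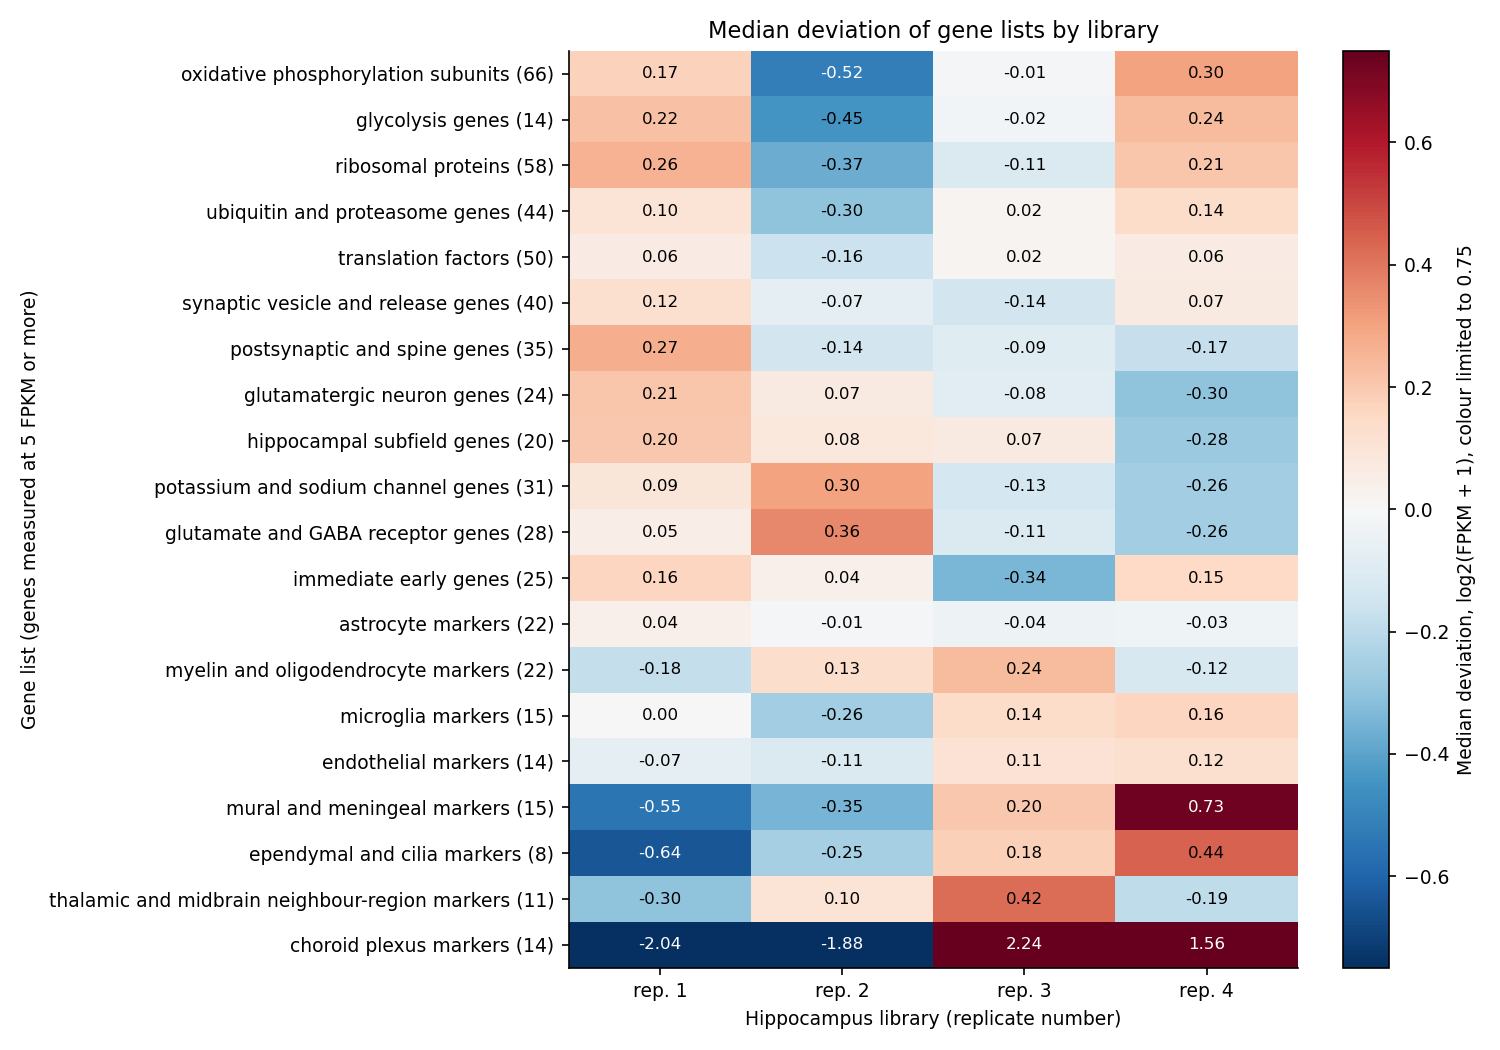
Median deviation of 20 gene lists from the genes' means in each of the 4 hippocampus libraries, in log2(FPKM + 1), with the number of genes at 5 FPKM or more in brackets; red is above and blue below the mean. Oxidative phosphorylation is at -0.52 in replicate 2, and choroid plexus markers are at 2.24 and 1.56 in replicates 3 and 4. Of these 14 choroid plexus markers, 8 were under 5 FPKM in the mean of replicates 1 and 2, so the minimum sets part of their deviation.

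The steadiest genes at 50 FPKM or more included genes of protein turnover, membrane traffic and neuronal growth. Rbx1, the RING subunit of cullin ubiquitin ligases, had the smallest SD, with 81.1, 81.3, 82.7 and 81.7 FPKM. Stmn2, a neuronal microtubule regulator, was at 424, 411, 412 and 398 FPKM. Scg3, a granin of secretory vesicles, was at 142 ± 4.16 FPKM and Glud1, the mitochondrial glutamate dehydrogenase, at 121 ± 3.75. Sar1a, a GTPase of vesicles leaving the endoplasmic reticulum, was at 75.8 ± 2.57 FPKM, and Ppp1cc, a catalytic subunit of protein phosphatase 1, at 183 ± 5.57. Acsl6, the acyl-CoA synthetase linked to DHA in neurons, was also among them, at 69.2, 70.6, 65.9 and 68.4 FPKM. These genes were the lowest of many SDs over 4 values, so their SDs understate what further libraries would show. Of the 18 common reference genes, 14 reached 5 FPKM. Actb, Ywhaz and Eef1a1 were steady, Rpl13a was variable (31.8, 7.39, 15.9 and 21.7 FPKM), and 10 were neither. Without replicate 2, 0 of the 14 were variable, against 4.55% of all genes.

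Choroid plexus genes were high in replicates 3 and 4. Of the 19 listed markers, 18 were higher in both of these libraries than in replicates 1 and 2, and together the 19 summed to 143, 215, 7576 and 5584 FPKM in replicates 1 to 4. Kl, the anti-ageing hormone klotho, was at 0.360, 0.536, 45.7 and 24.9 FPKM. The water channel Aqp1 was at 0.255, 0.417, 23.9 and 16.3 FPKM, and the bicarbonate transporter Slc4a5 at 0.196, 0.316, 23.8 and 18.8 FPKM. Replicates 3 and 4 did not overlap with replicates 1 and 2 for these genes. How many of all genes had this order was not counted. Otx2, a transcription factor of this epithelium, was listed at 0 in all 4. Of the 14 markers with a mean of at least 5 FPKM, 8 were under 5 FPKM in the mean of replicates 1 and 2. Markers of mural cells and meninges summed to 208, 290.3, 569.6 and 746 FPKM. Acta2, the smooth muscle actin, was at 40.4, 103, 148 and 237 FPKM, and Igf2, a growth factor of meninges and choroid plexus, at 5.43, 9.44, 75.6 and 73.6 FPKM. Ependymal markers summed to 178, 192, 261 and 374 FPKM, although Foxj1, the regulator of motile cilia, was steady at 53.6, 48.9, 51.8 and 48.3 FPKM. The part of choroid plexus and other neighbouring tissue in the remaining differences of replicates 3 and 4 was not tested.

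Replicate 4 alone also held genes of the pineal gland and of photoreceptors, a list drawn up after these values were seen. The 26 listed members summed to 6.59, 9.02, 11.6 and 661 FPKM. Of these, 18 were at 5 FPKM or more in replicate 4 and over 5 times each other library, and 8 were not. All 10 that reached a mean of 5 FPKM did so through replicate 4 alone. Tph1, the first enzyme of serotonin and melatonin synthesis in the pineal gland, was at 0.0681, 1.63, 0.601 and 137 FPKM. Gngt1, the rod transducin gamma subunit, was listed at 0, 0.135, 0.910 and 125 FPKM. Aipl1, a chaperone of photoreceptor phosphodiesterase, was at 0.0286, 0.278, 0.172 and 26.5 FPKM, and Prph2, a disc-rim protein, at 0.0670, 0.402, 0.257 and 28.4 FPKM. Crx, the homeobox factor of both tissues, was at 10.8 FPKM in replicate 4 and at most 0.121 FPKM elsewhere. Aanat, the enzyme that sets the nightly melatonin rhythm, stayed at 0.0651, 0.172, 0.156 and 0.202 FPKM. The other members without high values in replicate 4 were Gnat1, Rcvrn, Pde6b, Drd4, Arr3, Rp1 and Otx2, of which Pde6b was the highest there at 1.17 FPKM.

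**Figure D5:**
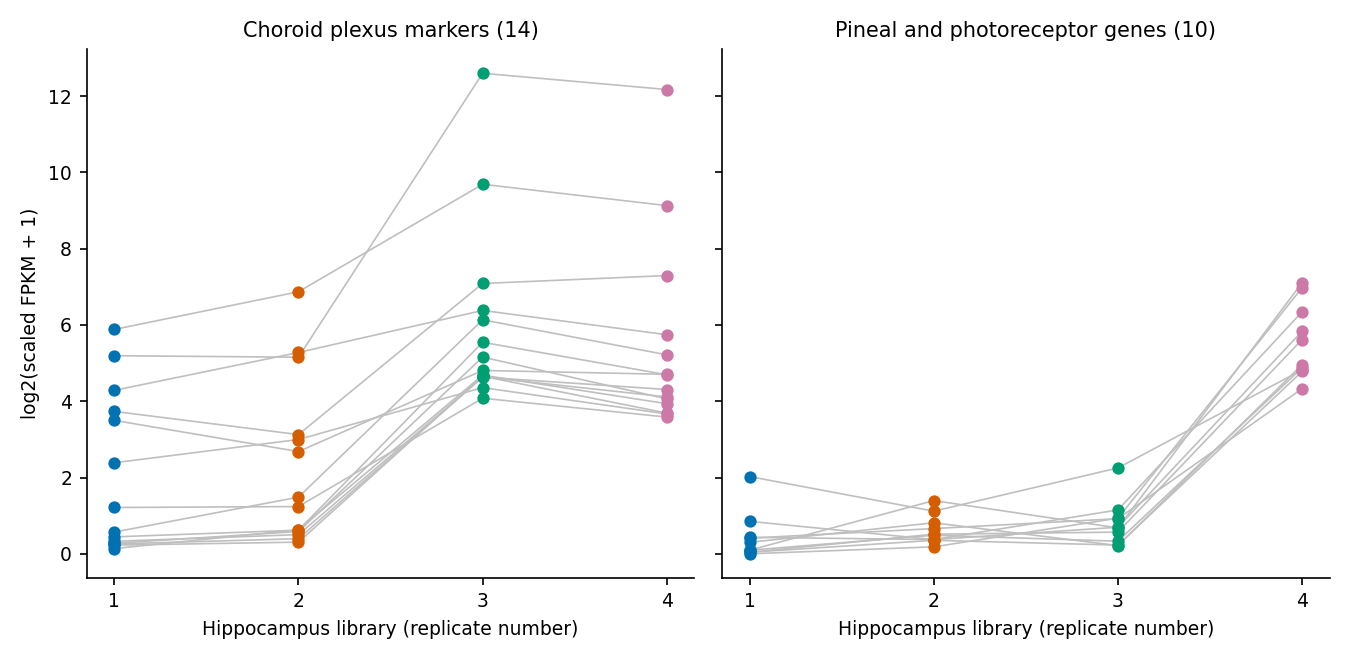
log2(scaled FPKM + 1) of the 14 choroid plexus markers (left) and 10 pineal and photoreceptor genes (right) whose mean reached 5 FPKM, in the 4 libraries; each line joins the values of a gene. Choroid plexus genes are high in replicates 3 and 4, and pineal genes only in replicate 4.

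Promoters of 3 of these genes are shown because the genes were high together in replicate 4 and their promoters hold TAATCC, the core letters that Crx prefers. They are the 250 bases before the RefSeq start (GRCr8, while the deposited values were made on rn5), on the gene's strand, with the motif or its reverse complement GGATTA in capitals. Gngt1 lies at chr4:32960695-32960944 on the plus strand, Aipl1 at chr10:57163456-57163705 on the minus strand and Prph2 at chr9:21579075-21579324 on the minus strand.
Gngt1: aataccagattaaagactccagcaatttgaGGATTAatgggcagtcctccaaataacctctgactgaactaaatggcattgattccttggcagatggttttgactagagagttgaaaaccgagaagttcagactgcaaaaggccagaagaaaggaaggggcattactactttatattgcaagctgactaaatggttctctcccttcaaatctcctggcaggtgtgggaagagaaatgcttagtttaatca
Aipl1: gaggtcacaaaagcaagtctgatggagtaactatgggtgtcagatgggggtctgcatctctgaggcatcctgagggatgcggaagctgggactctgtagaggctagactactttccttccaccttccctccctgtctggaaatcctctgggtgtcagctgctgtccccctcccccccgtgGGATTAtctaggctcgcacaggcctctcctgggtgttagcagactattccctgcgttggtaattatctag
Prph2: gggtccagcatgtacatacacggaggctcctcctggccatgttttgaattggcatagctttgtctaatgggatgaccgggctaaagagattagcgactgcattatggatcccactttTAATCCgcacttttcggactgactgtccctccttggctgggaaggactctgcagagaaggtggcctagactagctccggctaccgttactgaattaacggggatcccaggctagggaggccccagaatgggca
The motif lay 220, 70 and 133 bases before the start of Gngt1, Aipl1 and Prph2. Counting both strands, 7 of the 18 listed genes with a promoter held it (38.9%), against 4.63% of 7672 promoters of ranked genes and 6.34% of all 33469. Among the 7 was Aanat, which was not high in replicate 4, and Tph1, which was high, did not hold it. Of the 14 listed genes with a promoter that were high in replicate 4, 6 held the motif, and of the 4 others 1 did. The list was drawn up after its values were seen and holds genes of the tissues of Crx, so these shares test nothing. A match is a string of letters and not a measured binding site.

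Neuronal lists varied with several libraries. The counts below are set against 16.7% of all genes variable with all 4 libraries and 4.55% without replicate 2. Genes of glutamatergic neurons had 12 of 24 variable members, 7 of 24 without replicate 2. The median deviations of this list were 0.21, 0.07, -0.08 and -0.30 in replicates 1 to 4. Ddn, a dendritic protein whose messenger RNA is carried into dendrites, was at 453, 238, 247 and 194 FPKM. Prox1, of dentate granule cells, was at 12.1, 18.4, 15.9 and 6.77 FPKM, lowest in replicate 4, as were 12 of the 20 subfield genes. How many of all genes were lowest there was not counted. Interneuron genes had 7 of 16 variable members (43.8%), 4 of 16 without replicate 2. Gad1, a GABA-synthesising enzyme, was steady at 60.4, 70.0, 69.9 and 60.4 FPKM, whereas the peptide Sst was variable at 249, 168, 215 and 350.4 FPKM, a call lost without replicate 2. Gria2, the AMPA receptor subunit that limits calcium entry, was at 4.31 FPKM in replicate 1 and at 45.4, 23.3 and 25.1 FPKM in the others. Genes of thalamus and midbrain, which border the hippocampus, had 11 of 19 listed members at 5 FPKM or more. Of these, 8 were variable (72.7%), or 5 without replicate 2. They were highest in replicate 3 by their median deviation of 0.42.

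Immediate early genes, which neurons switch on within minutes of activity, had 11 of 25 variable members (44.0%, against 16.7% of all genes). Without replicate 2 there were 7 of 25, against 4.55% of all genes. The median deviation of this list was lowest in replicate 3, at -0.34, against 0.16, 0.04 and 0.15 in replicates 1, 2 and 4. Fos was at 16.0, 12.7, 8.83 and 22.8 FPKM, and Arc, which acts at the synapse, at 47.0, 43.7, 33.0 and 79.4 FPKM. Junb was at 53.8, 18.9, 14.5 and 31.8 FPKM. Egr1 was neither variable nor steady, at 47.4, 56.4, 36.0 and 70.1 FPKM. For these 4 genes replicate 3 was the lowest, as for 14 of the 25 members. The share of all genes lowest in replicate 3 was not counted. Another 5 members were lowest in replicate 2. Among those 5 were the highest members, Nr4a1 (98.9, 45.5, 52.4 and 108 FPKM) and Jund (119.8, 23.7, 26.4 and 45.6 FPKM).

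Of 10 interferon and histocompatibility genes at 5 FPKM or more, among 26 listed, 6 were variable (60.0%, against 16.7% of all genes). Without replicate 2, 4 were variable, against 4.55% of all genes. The class I histocompatibility gene RT1-A1 was at 5.01, 4.26, 22.2 and 118 FPKM. Histocompatibility genes have near-identical copies that differ between outbred animals, so this level is uncertain. Cd74, the invariant chain of class II molecules, was at 7.10, 16.0, 29.2 and 42.0 FPKM. Microglia markers had 5 of 15 variable members (33.3%, against 16.7% of all genes), 1 of 15 without replicate 2, where that 1 was Cd74, and a median deviation of -0.26 in replicate 2. Csf1r, a growth factor receptor of microglia, was 1 of their 3 steady members at 31.2, 29.7, 32.3 and 31.6 FPKM. Astrocyte markers had 3 of 22 variable members, Aqp4, Apoe and Clu, and 0 of 22 without replicate 2.

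Genes that handle the fed compounds are given without a control diet. Among 13 fructose and glucose genes at 5 FPKM or more, Akr1b1, the aldose reductase of the polyol pathway, was the variable one (7.69%, against 16.7% of all genes), at 33.7, 49.3, 61.9 and 93.3 FPKM. Khk, ketohexokinase, which starts fructose breakdown, was at 4.11 FPKM, and the fructose transporter Slc2a5 at 2.72 FPKM. Among 29 fatty acid genes, 5 were variable and 5 steady (17.2% each), near the 16.7 and 19.2% of all genes. Fabp3, a fatty acid binding protein, was at 46.5, 8.53, 28.2 and 78.9 FPKM, and Alox15, a lipoxygenase, was at 46.4 FPKM in replicate 4 and at most 1.55 FPKM elsewhere. Alox15 reached a mean of 5 FPKM through replicate 4 alone, so it had to be variable. Without replicate 2, the variable ones were Fabp3 and Alox15, 2 of 29, against 4.55% of all genes. Mfsd2a, the transporter that carries DHA across the blood-brain barrier, was at 18.7, 20.5, 23.6 and 24.1 FPKM.

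A few genes were near 0 in one library and abundant in another. There were 38 genes under 1 FPKM in at least 1 library and at 10 FPKM or more in another, and 11 of them were low in replicate 1 alone. Nxf3, an RNA export factor, was at 0.418, 132, 118 and 151 FPKM, and Tomm22, a receptor of mitochondrial protein import, at 0, 31.1, 102 and 90.2 FPKM. The 7 genes low in replicates 1, 2 and 3 were all on the pineal and photoreceptor list, which was drawn up from such values. Chchd2, a mitochondrial protein, was at 47.4 FPKM in replicate 1 and listed at 0 in the others. Pfn2, the neuronal profilin, was at 58.8, 0.336, 31.3 and 0.992 FPKM. Of the 38 genes, 21.1% overlapped another coding gene in RefSeq, against 19.8% of all genes at 5 FPKM or more, and among the 11 low in replicate 1 alone 4 did so.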

How the data were processed

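RNA was purified from hippocampus with a column kit, selected for poly-A transcripts and sequenced on an Illumina HiSeq instrument, per the labels. For each locus the authors deposited an FPKM value and a status. TopHat, TopHat2, Bowtie, Bowtie2, Cufflinks, Cuffdiff and build rn5 are named per the submitters' processing notes, with their versions and settings not given in the sources used here. Of 18087 loci, 71 had a status other than OK in a library (82 FAIL and 16 HIDATA values) and were dropped, which removed 56 symbols. FPKM were summed over loci (1729 symbols had several) and scaled by median-of-ratios factors of 0.970, 0.988, 1.01 and 1.03. Means of at least 1 FPKM were ranked, and spread was measured at 5 FPKM or more on log2(FPKM + 1). There is 1 group of 4 libraries and no contrast, so no test was run, and the other tissue's table was not used here.

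Gene lists were matched by symbol. The members, lists and rules were chosen with earlier results of these data known, and the pineal and photoreceptor list after its values were seen. The genes named by rule were the 30 highest means, the 3 highest and 2 most variable members of each list, the 20 largest SDs, the 15 smallest SDs at 50 FPKM or more, the reference genes and high loci dropped for status; other members were named as examples after their values were seen. A few genes picked by this rule are not reported here. Read depth was unknown, and low values gave relative depth only. No 2 libraries held identical values. The calculation was tested on simulated data. Alternatives were other scalings, pseudocounts, filters, loci and status rules and leaving out each library; quantile normalisation and leaving out replicates 3 and 4 were added after seeing the data. Python 3.11.15, numpy 2.4.6, pandas 2.3.3 and matplotlib 3.10.9 were used. Promoters and gene spans came from RefSeq (GRCr8).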

Additional observations from a re-analysis of the deposited data

Results flagged for a closer look

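A library stood far from the other 3 for 18 of 215 named genes and for 2 of 41 lists; 1 of these genes is not reported here. Chance gives this for about 1 in 20 groups of 4 that were not chosen by their values. Many of these genes were named for their spread, and the pineal and photoreceptor list was drawn up from its values. The rate is therefore no measure for these counts.

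Replicate 1 was far below the others for Vamp2 (607 FPKM), Cplx1 (261 FPKM), Nxf3 (0.418 FPKM) and Itm2a (54.8 FPKM), a membrane protein used as an endothelial marker. It was far above them for Chchd2 (47.4 FPKM), Hprt1 (2.35 FPKM) and Eef1a1 (124 FPKM). Eef1a1 was a steady gene, so its gap is small in size.

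Replicate 2 was far below the others for Ywhae (832 FPKM), a 14-3-3 adaptor protein, for Ddit4 (44.1 FPKM), a stress-induced inhibitor of mTOR, for C1qa (29.7 FPKM), a complement gene of microglia, and for Scg3 (136 FPKM), another steady gene. The summed level of translation factors was also far lower there, at 3908 FPKM.

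Replicate 3 was far above the others for Polr2l (85.8 FPKM), a subunit of RNA polymerase II. Replicate 4 was far above them for Gngt1 (125 FPKM), Gngt2 (80.3 FPKM), Gnb3 (56.1 FPKM) and Gnat2 (48.1 FPKM), which are transducin subunits, and for the summed pineal and photoreceptor list (661 FPKM), and below them for Rps18 (1.35 FPKM).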

How the results depend on the processing

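No paired analysis was possible because a single group was described and nothing was compared between groups. The counts of variable and steady genes depended on which libraries entered. Leaving out each library in turn gave a median SD of 0.164 to 0.294, 351 to 1231 variable genes and 1825 to 3984 steady genes. The ends at 0.164, 351 and 3984 came without replicate 2; without replicate 4 there were 835 variable genes, and without replicate 1 there were 2364 steady genes. Without replicates 3 and 4 there were 688 variable genes (8.95%) and 3173 steady genes. A minimum of 20 FPKM for spread left 697 variable and 682 steady genes, from fewer genes measured. With no minimum for ranking, 16167 symbols were ranked, by construction. The number ranked was 10283 to 10375 without each library. With only symbols of 1 locus, 28 of 120 counts per list moved by over 1.5 times, as did 3 of 120 with loci of other status kept. The other scalings, the smaller pseudocount and the rules on loci and status kept the counts of variable and steady genes within 1.5 times. Of the 215 gene levels, that of Rbx1 moved by more than its SD, to 82.7 FPKM without replicate 1 and 80.9 FPKM without replicate 3. Unknown read depth and 4 libraries limit every SD given.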
